A study of Mus musculus with 8 samples.

Results

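The cytochrome P450 genes of the mouse were examined in primary hepatic stellate cells in which PAK4, a p21-activated kinase, had been lowered by siRNA. The members were the protein-coding genes of the deposited table whose symbol is Cyp followed by a number and a letter, leaving out Cyp1a1, Cyp1b1, Cyp26b1 and Cyp51, and they numbered 95 of the 45777 genes listed. That rule uses no expression value, but it was set with earlier results of these data known. The siPAK4 group held 4 libraries of cells transfected with siRNA against PAK4, and the siControl group held 4 libraries of cells given a control siRNA. Both groups were wild-type male C57BL/6 cells carrying the label batch 1. Stellate cells store vitamin A beside the sinusoids of the liver, and here they were activating in culture. The comparison asks which transcripts change when PAK4 is lowered. No label ties the 4 replicates of a group to different mice or cultures, and the p-values therefore reflect only the variation among the libraries, some or all of which could be technical.

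Cytochrome P450 enzymes are haem proteins that insert 1 atom of oxygen into their substrate, drawing electrons from NADPH through the reductase encoded by Por in the endoplasmic reticulum or through ferredoxin in mitochondria. Families with low numbers include the hepatocyte enzymes that clear drugs and other foreign compounds. Others act on fatty acids and leukotrienes (Cyp4), retinoic acid (Cyp26), cholesterol and bile acid precursors (Cyp7, Cyp8, Cyp27, Cyp39, Cyp46), vitamin D (Cyp2r1, Cyp24, Cyp27b1) or steroid hormones (Cyp11, Cyp17, Cyp19, Cyp21). The liver is known for its P450 content, which is carried mostly by hepatocytes.

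Counts summed to between 55728583 and 59205049 per siPAK4 library and between 57297561 and 61535063 per siControl library. Levels are given as CPM, the read count relative to the library size after TMM scaling, or, where genes are compared with each other, as the authors' TPM, which also divides by transcript length. Pak4 itself was at 7.72, 5.70, 5.17 and 6.69 CPM in siPAK4 replicates 1 to 4, against 18.6, 17.7, 16.4 and 16.2 CPM in siControl replicates 1 to 4, a log2 fold change of −1.44 (adjusted p = 9.4e-06 by edgeR's quasi-likelihood test). The siPAK4 replicate 3 library stood apart from the rest of its group on the second principal component, which held 13.4% of the variance. All 7 members called below were also called without it. Col1a2 and Dcn, collagen and matrix genes of activated stellate cells, averaged 268 and 479 CPM in siPAK4 and 639 and 425 CPM in siControl. Lrat, which encodes the retinol-esterifying enzyme of resting stellate cells, averaged 0.216 ± 0.105 CPM in siPAK4 and 0.0269 ± 0.0343 CPM in siControl (SD, n = 4 each). Markers of other cells were present too. The summed level of 13 macrophage markers was 5137 to 8325 CPM in siPAK4 and 9182 to 10640 CPM in siControl, with 0 of them higher and 8 lower. Most of that sum was Lyz2, at 3984 to 6739 CPM in siPAK4 and 7158 to 8429 CPM in siControl. The sum of 11 endothelial markers was 3765 to 5476 CPM in siPAK4 and 6254 to 6472 CPM in siControl, with 2 higher and 6 lower. The sum of 11 stellate markers was 988 to 1209 CPM in siPAK4 and 1593 to 2021 CPM in siControl, with 1 higher and 7 lower. The 4 mesothelial markers summed to 35.5 to 54.7 CPM in siPAK4 and 121 to 150 CPM in siControl, with 3 lower. None of the markers of these lists was at 0 in all libraries. Over all 17975 tested genes, 12.4% were higher and 14.5% lower. Of the 5 tested cholangiocyte markers 1 was lower, with 6 markers summing to 1032 to 1502 CPM in siPAK4 and 1137 to 1610 CPM in siControl. Nearly all of that sum was Spp1, at 1020 to 1490 CPM in siPAK4 and 1121 to 1594 CPM in siControl. In such bulk libraries, fewer cells of a type and less RNA per cell cannot be told apart, and the part of these shifts in the results below was not tested.

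Fewer than 1 in 2 of the P450 genes were detected. Reads were found for 46 of the 95 members (48.4%), and 49 had none in any library. A count of 0 over the 462500131 reads of all 8 libraries allows a level of up to 0.00649 CPM, a limit that covers counting error only. That limit assumes plain read tallies, which very low counts here may not be. The filter on low counts kept 21 members for testing, and 20 of these had at least 10 reads in every library, so their passing did not rest on 1 group. The tested genes came from 8 of the 16 families: 8 of the 20 Cyp4 genes, 6 of the 48 Cyp2 genes, both Cyp26 members, and Cyp7b1, Cyp11a1, Cyp20a1, Cyp27a1 and Cyp39a1. Large hepatic subfamilies had no tested gene, among them Cyp2c with 15 members, Cyp3a with 9 and Cyp4a with 8.

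Cyp4b1 stood far above the others. Its level averaged 399 ± 77.2 TPM in siPAK4 and 780 ± 68.1 TPM in siControl (SD, n = 4 each). Next came the orphan P450 gene Cyp20a1, at 52.0 ± 3.38 TPM in siPAK4 and 53.3 ± 1.28 TPM in siControl, and Cyp4v3, at 36.0 ± 3.53 TPM in siPAK4 and 32.6 ± 1.35 TPM in siControl. Cyp4f16 and Cyp2j6 followed with means above 10 TPM in both groups. In siControl the ranges of the 5 leading genes did not overlap from one to the next, whereas Cyp27a1 and Cyp4f18 overlapped, as did Cyp2d22 and Cyp2r1, and the run of Cyp7b1, Cyp2s1 and Cyp2j9. Further down, each of Cyp26a1, Cyp11a1, Cyp2u1 and Cyp4f37 overlapped its neighbour in siControl. At the low end, Cyp4f39 averaged 0.165 ± 0.118 TPM in siPAK4 and 0.140 ± 0.0429 TPM in siControl.

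**Figure D1:**
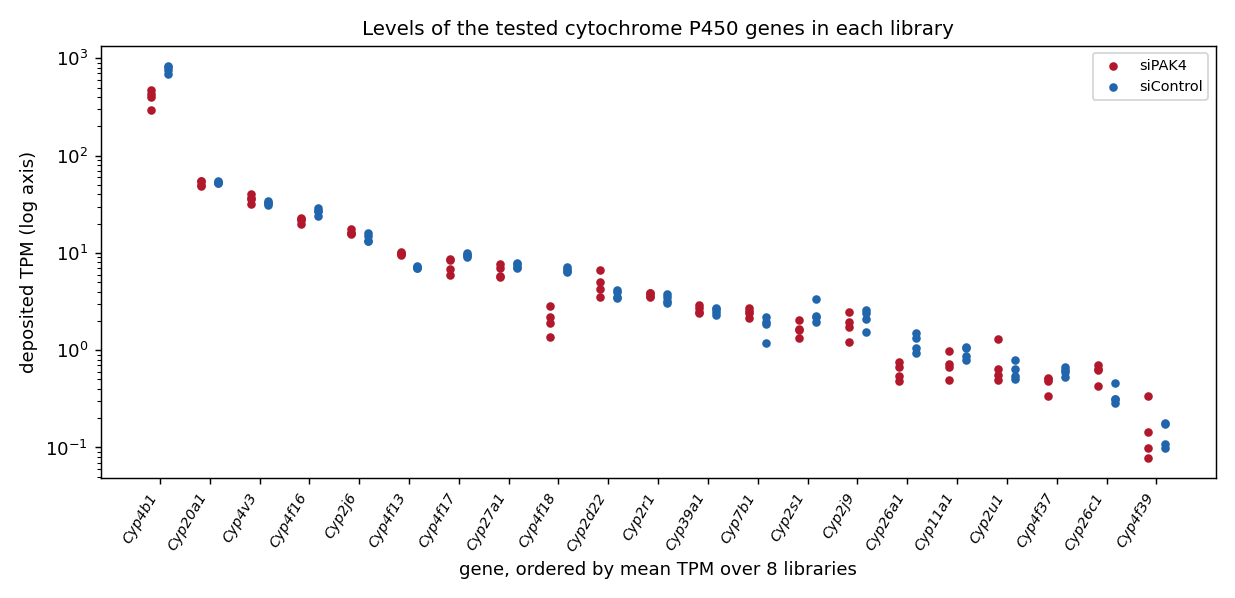
Deposited TPM of the 21 tested cytochrome P450 genes on a log axis, with each gene's siPAK4 libraries (red) left of its siControl libraries (blue) and 1 point per library. Cyp4b1 lies above every other gene in each library, and on this scale the groups do not overlap for Cyp4b1, Cyp4f13, Cyp4f16, Cyp4f17, Cyp4f18, Cyp4f37 and Cyp26a1.

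Of the 21 tested members 1 was higher and 6 were lower with siPAK4, and 14 did not pass an adjusted p of 0.05. The 7 called genes are 33.3% of the tested members, where 26.9% of all 17975 tested genes were called. The single rise is 4.76% of the members, where 12.4% of all genes were higher, and the 6 falls are 28.6%, where 14.5% of all genes were lower. The median log2 fold change of the tested members was −0.068, and that of all tested genes was 0.0052. These shares describe a small set and were not tested as a list. They do not cover the P450 genes left out by the rule, and the share of rises depends on leaving these out. Of these, Cyp1a1 (log2 fold change 3.08, adjusted p = 4.9e-06) and Cyp26b1 (1.02, adjusted p = 0.014) were higher. Cyp1b1 (0.27, adjusted p = 0.084) and Cyp51 (−0.14, adjusted p = 0.44) did not pass. Without siPAK4 replicate 3, Cyp2d22 was a further member called higher. The CPM of the groups did not overlap in 8 of the 21 members (38.1%, against 28.8% of all tested genes): the 7 called genes and Cyp4f37. In 1 member siPAK4 was the higher group and in 7 the lower, where 14% and 14.8% of all tested genes were so. The split of directions moved with the scaling: with library totals in place of TMM, 4 members were higher and 5 lower, and over all genes 3877 were higher (21.6%) and 1859 lower (10.3%), against 2227 and 2605 with TMM.

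**Figure D2:**
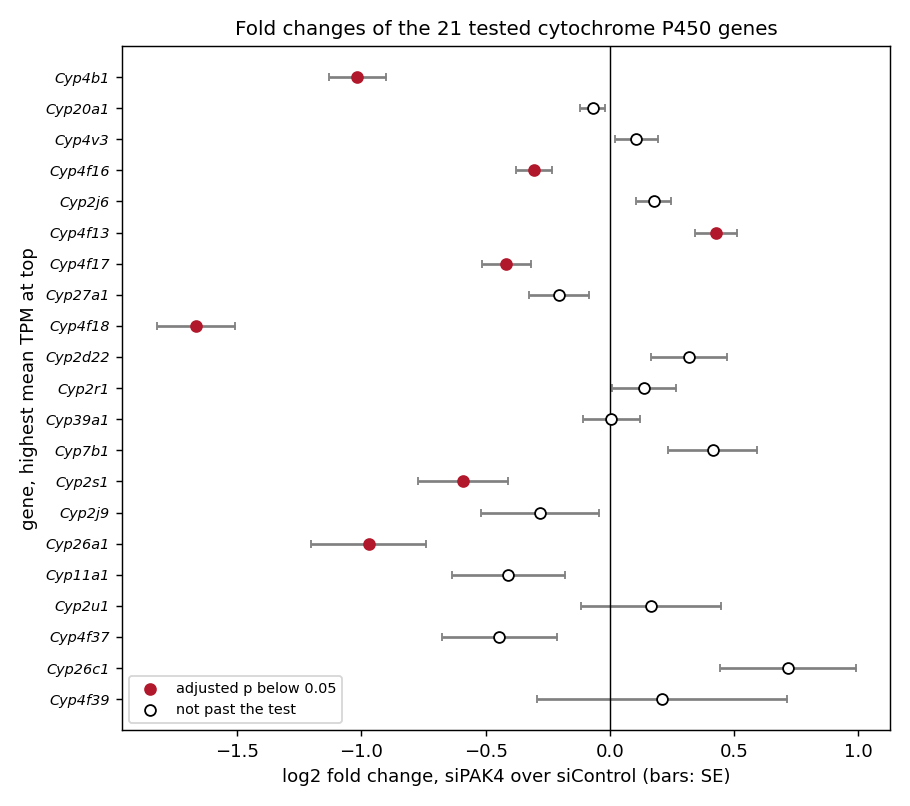
Log2 fold change of siPAK4 over siControl with its standard error for the 21 tested members, ordered by mean TPM, with filled points for genes past the adjusted p of 0.05. Cyp4f18 and Cyp4b1 lie furthest to the left, and Cyp4f13 is the only filled point right of 0.

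The sequence before the annotated start is shown for the 2 tested genes with the largest falls, Cyp4b1 and Cyp4f18, and for Cyp4f13, the gene that rose. All are from RefSeq on GRCm38.p6, minus strand, written 5′ to 3′ and ending at the last base before the gene: 250 bases for Cyp4b1 at chr4:115647722-115647971, 208 for Cyp4f18 at chr8:72009669-72009876 and 196 for Cyp4f13 at chr17:32947416-32947611. Capitals mark a match on either strand to TGANTCA, a pattern that allows any base at N and is wider than the AP-1 core.
Cyp4b1: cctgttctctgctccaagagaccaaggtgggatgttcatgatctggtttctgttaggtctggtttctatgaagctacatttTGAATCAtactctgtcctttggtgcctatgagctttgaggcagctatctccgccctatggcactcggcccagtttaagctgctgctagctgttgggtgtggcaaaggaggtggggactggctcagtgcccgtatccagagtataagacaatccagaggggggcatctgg
Cyp4f18: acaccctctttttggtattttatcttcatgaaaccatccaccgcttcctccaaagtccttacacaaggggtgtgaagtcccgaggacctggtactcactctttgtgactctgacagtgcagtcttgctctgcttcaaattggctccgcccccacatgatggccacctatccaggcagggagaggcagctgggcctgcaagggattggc
Cyp4f13: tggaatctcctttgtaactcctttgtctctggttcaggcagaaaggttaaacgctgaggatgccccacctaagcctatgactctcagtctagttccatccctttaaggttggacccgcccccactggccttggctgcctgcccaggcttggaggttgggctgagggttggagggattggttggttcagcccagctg
The windows searched held 250 bases before and 50 after each start, and 73 of the 95 members had at least 1, giving 83 windows, 17 of them of tested members. TGANTCA was found in 3 of those 17 windows, those of Cyp4b1, Cyp4f16 and Cyp4f37, and in 7.81% of all 32851 RefSeq windows. GGAATG, the core read by TEAD factors, was in 1 of the 17 (Cyp2j6) and in 14.7% of all. GCGTG, the core read by the aryl hydrocarbon receptor, was in 6 of the 17 and in 32.4% of all. Among the called genes it was in the window of Cyp4f16, and in none of the windows of Cyp4b1, Cyp4f18, Cyp4f13, Cyp26a1 and Cyp2s1. Each of these motifs was searched on both strands, and a match says only that the letters are there.

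Cyp4b1 (NCBI gene 13120, chromosome 4, 115624698 to 115647721) encodes a fatty acid hydroxylase known in lung for activating the plant toxin 4-ipomeanol. It was at 390, 327, 274 and 393 CPM in siPAK4 replicates 1 to 4 and at 605, 754, 679 and 762 CPM in siControl replicates 1 to 4. Every siPAK4 library was below every siControl library, with replicate 3 the lowest of siPAK4 and replicate 1 the lowest of siControl. The log2 fold change was −1.02 (SE 0.115, adjusted p = 7.9e-05). Its reads made up 56.3% to 67.4% of all reads on the members in siPAK4 and 75.3% to 78.9% in siControl. Without it, the members summed to 193, 194, 213 and 190 CPM in siPAK4 replicates 1 to 4 and to 199, 203, 209 and 203 CPM in siControl replicates 1 to 4, so that the ranges overlapped. The siPAK4 library lowest in Cyp4b1, replicate 3, was also the lowest in the summed endothelial markers (3765 CPM) and the highest of its group in the macrophage markers (8325 CPM). Lyz2 alone made up 6739 CPM of that macrophage sum. The siControl library lowest in Cyp4b1, replicate 1, was at 6411 CPM in the endothelial markers, where the siControl range was 6254 to 6472 CPM. The part of endothelial RNA in the fall of Cyp4b1 was not tested. A share of 8.26% of the 50-base words of the Cyp4b1 transcripts also occurs in transcripts of other genes, most often in those of the pseudogene Cyp4b1-ps2.

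Cyp4f18 (NCBI gene 72054, chromosome 8, 71988482 to 72009668) had the largest fall among the 21 tested members. In mouse neutrophils its enzyme hydroxylates the chemoattractant leukotriene B4 and so ends its signal. The gene was at 1.61, 1.34, 1.96 and 2.25 CPM in siPAK4 replicates 1 to 4, against 5.47, 5.34, 6.30 and 5.66 CPM in siControl replicates 1 to 4. The groups lay well apart, with the highest siPAK4 library below the lowest siControl library by more than the range within either group. The log2 fold change was −1.67 (SE 0.156, adjusted p = 2e-05). Neutrophil markers were scarce: of 8, Ly6g and Elane were at 0 in all libraries, and the sum was 17.7 to 21.8 CPM in siPAK4 and 14.5 to 19.1 CPM in siControl, with 0 of 2 tested markers called. Of the 12 tested macrophage markers, 0 were higher, 8 were lower and 4 missed the threshold. Among those lower, Cd5l averaged 42.0 ± 10.8 CPM in siPAK4 and 283 ± 27.3 CPM in siControl (SD, n = 4 each). Adgre1 averaged 425 ± 69.9 CPM in siPAK4 and 386 ± 17.9 CPM in siControl and did not pass (log2 fold change 0.14, adjusted p = 0.34). The part of macrophage RNA in the fall of Cyp4f18 was not tested.

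**Figure D3:**
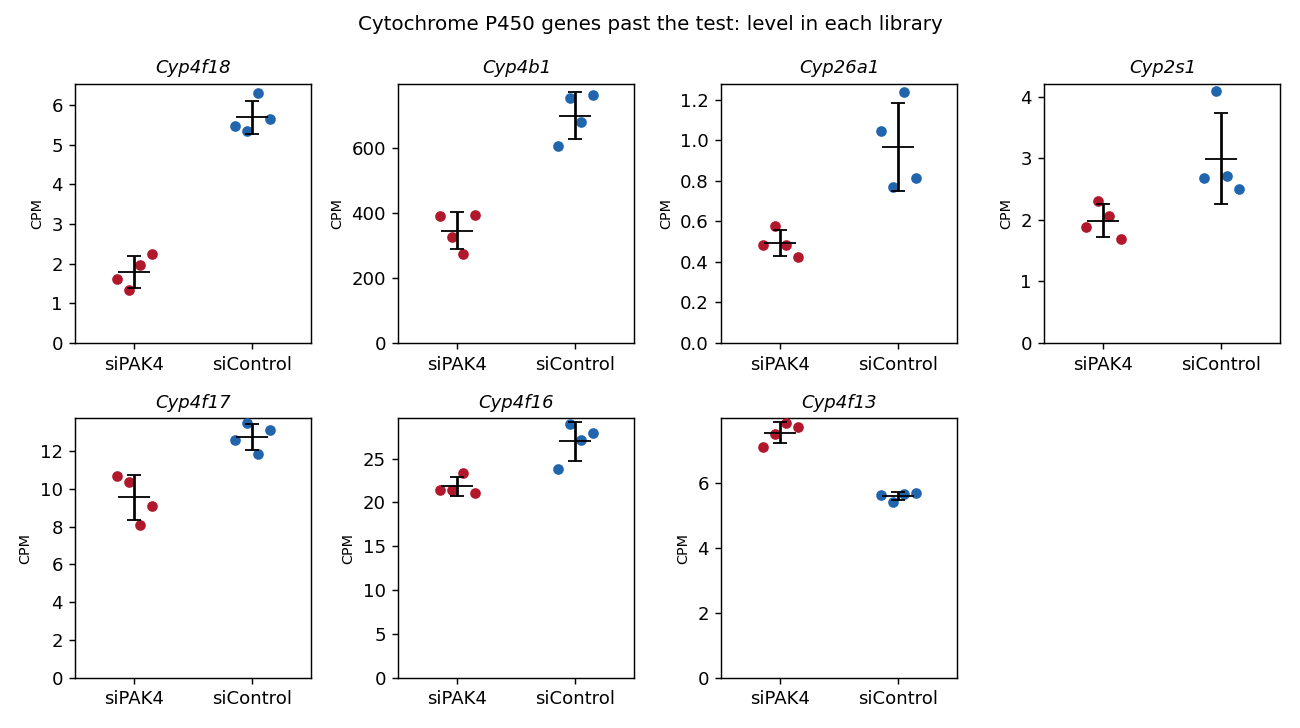
CPM in each library for the 7 members past the test, siPAK4 left (red) and siControl right (blue), with the mean and SD of 4 libraries as black bars and axes starting at 0. The groups do not overlap in any panel, and the gap is widest relative to the spread for Cyp4f18, where siPAK4 lies between 1.34 and 2.25 CPM and siControl between 5.34 and 6.30 CPM.

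The other Cyp4f genes lie side by side on chromosome 17, where 8 members form a run, and they changed in both directions. The subfamily is known for hydroxylating leukotrienes and long-chain fatty acids at or near the end of the chain. Cyp4f17 (32506192 to 32530158) was at 10.7, 10.4, 8.07 and 9.08 CPM in siPAK4 replicates 1 to 4, against 12.6, 13.5, 11.9 and 13.1 CPM in siControl replicates 1 to 4 (log2 fold change −0.42, SE 0.0988, adjusted p = 0.0088). Cyp4f16 (32536545 to 32551798) was at 21.5, 21.4, 23.4 and 21.04 CPM in siPAK4, against 23.9, 29.0, 27.1 and 27.9 CPM in siControl, in the same order of replicates (−0.31, SE 0.0732, adjusted p = 0.0095). Both genes were lower without overlap, though for Cyp4f16 the highest siPAK4 library and the lowest siControl library differed by less than 1 CPM. Cyp4f13 (32924688 to 32947415) went the other way, with 7.12, 7.501, 7.85 and 7.73 CPM in siPAK4 replicates 1 to 4 and 5.64, 5.43, 5.67 and 5.70 CPM in siControl replicates 1 to 4. It rose in each siPAK4 library relative to each siControl library (0.43, SE 0.0845, adjusted p = 0.003), and it was the only member called higher.

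Between these genes, Cyp4f37 averaged 0.560 ± 0.119 CPM in siPAK4 and 0.763 ± 0.0845 CPM in siControl and did not pass (log2 fold change −0.44, adjusted p = 0.18), although its groups did not overlap. Cyp4f39, the mouse counterpart of the human skin barrier gene CYP4F22, had 6 to 25 reads per siPAK4 library and 7 to 13 per siControl library (0.21, adjusted p = 0.80). Cyp4f14 had 26 reads in siPAK4 and 6 in siControl, too few to test, and Cyp4f15 and Cyp4f40 had none. Transcripts of Cyp4f16 and Cyp4f37 share sequence: 17.4% of the 50-base words of the first and 19.7% of those of the second occur in another gene, mostly each other, so their separate values are uncertain. For Cyp4f13 and Cyp4f17 the shares were 1.11% and 2.99%.

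**Figure D4:**
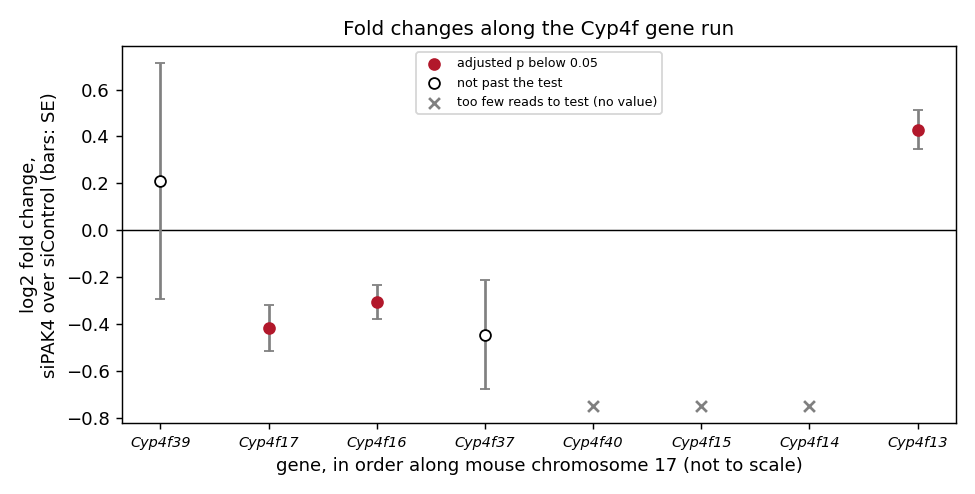
Log2 fold change of siPAK4 over siControl, with SE, for the 8 Cyp4f genes in their order along chromosome 17. Cyp4f17 and Cyp4f16 are below 0 (−0.42 and −0.31), Cyp4f13 at the other end is above it (0.43), and crosses at the bottom mark the 3 genes with too few reads to test.

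Cyp4v3, whose human counterpart CYP4V2 is a fatty acid hydroxylase mutated in Bietti crystalline dystrophy, did not pass the test. It was at 44.9, 45.3, 57.1 and 43.2 CPM in siPAK4 replicates 1 to 4 and at 41.3, 43.7, 46.5 and 45.3 CPM in siControl replicates 1 to 4 (log2 fold change 0.11, SE 0.0869, adjusted p = 0.40). The groups overlapped, with siPAK4 replicate 3 above all others, and the log2 fold change was 0.0061 without it. No member of the Cyp4a subfamily, the fatty acid hydroxylases known as targets of PPAR alpha in hepatocytes, had enough reads to test, and Ppara itself averaged 0.477 ± 0.135 CPM in siPAK4 and 0.463 ± 0.173 CPM in siControl.

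Of the 6 tested Cyp2 genes, only Cyp2s1 passed. Cyp2s1 (chromosome 7, 25802469 to 25816525) encodes an enzyme of tissues outside the liver that is known to be induced through the aryl hydrocarbon receptor. It was at 1.88, 2.31, 2.06 and 1.69 CPM in siPAK4 replicates 1 to 4, against 2.67, 4.09, 2.72 and 2.49 CPM in siControl replicates 1 to 4 (log2 fold change −0.59, SE 0.181, adjusted p = 0.031). The groups did not overlap, and siControl replicate 2 stood above the other siControl libraries. The call was lost without siPAK4 replicate 1 (adjusted p = 0.067), siPAK4 replicate 4 (0.081) or siControl replicate 2 (0.095), and with library totals in place of TMM (0.059), over a range of adjusted p from 0.013 to 0.095 across all alternatives. In the same libraries the receptor gene Ahr rose (0.89, adjusted p = 2.8e-05), and its partner gene Arnt did not pass (−0.15, adjusted p = 0.27).

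The Cyp2j enzymes turn arachidonic acid into epoxides and hydroxy acids. Cyp2j6 averaged 27.1 ± 1.47 CPM in siPAK4 and 23.98 ± 1.68 CPM in siControl (log2 change 0.18, adjusted p = 0.084), and it was called higher with library totals (0.27, adjusted p = 0.011). Cyp2j9 averaged 1.68 ± 0.522 CPM in siPAK4 and 2.04 ± 0.433 CPM in siControl (−0.28, adjusted p = 0.43; SD, n = 4 each). Cyp2d22, a mouse relative of the human drug-metabolising gene CYP2D6, was at 7.93, 5.10, 4.84 and 6.51 CPM in siPAK4 replicates 1 to 4 and at 5.06, 5.32, 4.58 and 4.56 CPM in siControl replicates 1 to 4. The groups overlapped and the gene did not pass (0.32, SE 0.153, adjusted p = 0.15), but it passed without siPAK4 replicate 3 (0.41, adjusted p = 0.042). Cyp2u1, which encodes a fatty acid hydroxylase, did not pass either (0.16, adjusted p = 0.72), and its sign turned without siPAK4 replicate 1 (−0.15).

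The retinoic acid hydroxylases, which break down the active form of vitamin A, gave different results for neighbouring genes. Cyp26a1 (chromosome 19, 37697738 to 37701536) was at 0.484, 0.578, 0.482 and 0.426 CPM in siPAK4 replicates 1 to 4, against 1.05, 0.768, 1.24 and 0.814 CPM in siControl replicates 1 to 4. All siPAK4 libraries were lower than all siControl libraries (log2 fold change −0.97, SE 0.232, adjusted p = 0.0094), at 25 to 34 reads per siPAK4 library and 43 to 73 per siControl library. Cyp26c1, which ends 4418 bases before Cyp26a1 begins, was at 0.622, 0.544, 0.649 and 0.426 CPM in siPAK4 and at 0.307, 0.447, 0.289 and 0.318 CPM in siControl, in the same order. Its groups overlapped in 1 library each and it did not pass (0.72, SE 0.273, adjusted p = 0.073, and 0.042 with library totals). The difference between the fold changes of these genes was not tested.

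Cyp26a1 is known to be induced by retinoic acid through its receptors, which bind paired half-sites near the start of the gene. A direct repeat of 2 half-sites with 5 bases between them was searched on both strands, where AGTTCA or GGTTCA counted as a half-site, as did AGGTCA and also GGGTCA. Among the 17 windows of tested members only that of Cyp26a1 held one, and 0.0974% of all 32851 windows did. It is shown because it lies 32 to 16 bases before the start of that window's transcript, at chr19:37697776-37697792 of GRCm38.p6, with the match in capitals and 6 bases on either side (plus strand). This stretch is inside the annotated gene, which starts at 37697738.
Cyp26a1: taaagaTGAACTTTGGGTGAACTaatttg
On the opposite strand each half-site reads as AGTTCA. Of the receptor genes, Rara rose (log2 fold change 0.32, adjusted p = 0.025), whereas Rarb (−0.03, adjusted p = 0.90) and Rarg (−0.03, adjusted p = 0.88) did not pass.

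None of the P450 genes of sterols, steroids and vitamin D passed the test. Cyp27a1, the mitochondrial sterol hydroxylase gene, averaged 6.02 ± 0.946 CPM in siPAK4 and 6.93 ± 0.505 CPM in siControl (log2 change −0.20, SE 0.121, adjusted p = 0.25). Cyp7b1, which encodes the hydroxylase of side-chain oxysterols, was at 2.02, 2.55, 2.68 and 2.47 CPM in siPAK4 replicates 1 to 4 and at 2.15, 1.97, 1.92 and 1.26 CPM in siControl replicates 1 to 4. Its groups overlapped (0.42, SE 0.180, adjusted p = 0.11, and 0.049 with library totals). Cyp39a1, which acts on 24-hydroxycholesterol, was nearly level, at 3.73 ± 0.364 CPM in siPAK4 and 3.72 ± 0.216 CPM in siControl (0.0057, SE 0.115, adjusted p = 0.98). Cyp11a1, the side-chain cleavage enzyme gene of steroid synthesis, averaged 0.638 ± 0.151 CPM in siPAK4 and 0.847 ± 0.1102 CPM in siControl (−0.41, adjusted p = 0.22). Cyp2r1, the vitamin D 25-hydroxylase gene, averaged 2.70 ± 0.196 CPM in siPAK4 and 2.46 ± 0.245 CPM in siControl (0.14, adjusted p = 0.48). Cyp27b1, which activates vitamin D, had 31 reads in siPAK4 and 20 in siControl, and Cyp24a1, which inactivates it, had none. Vdr, the vitamin D receptor gene, fell (−1.07, adjusted p = 0.00031).

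Cyp20a1, an orphan with no settled substrate, showed little spread. It was at 51.8, 52.4, 53.9 and 51.2 CPM in siPAK4 replicates 1 to 4 and at 54.0, 53.6, 56.2 and 55.5 CPM in siControl replicates 1 to 4. The groups overlapped slightly, and the log2 fold change was −0.068 (SE 0.0499, adjusted p = 0.35), with a sign that turned with library totals (0.021).

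The 74 members that did not pass the filter include the P450 genes best known from hepatocytes, and their few reads lay mostly in siPAK4 libraries. They had 73, 73, 192 and 72 reads in all in siPAK4 replicates 1 to 4, against 44, 35, 35 and 32 in siControl replicates 1 to 4. Each siPAK4 library was above each siControl library, and replicate 3 of siPAK4 held more than double the reads of any other. Of these genes 25 had a read, 9 of them in siPAK4 alone and 1 in siControl alone. The same shares over all genes below the filter were not computed, so a lean particular to these members is not shown. Cyp3a11, the main drug-metabolising P450 gene under the receptor PXR in mouse liver, had 3, 9, 11 and 4 reads in siPAK4 replicates 1 to 4 and 0 in every siControl library. With the siControl group set at a floor of 3 counts, that is 8.67-fold higher, which is not a lower bound. The exact 95% counting interval of that ratio starts lower, at 6.58. Cyp2a5, which encodes the mouse coumarin hydroxylase, had 9, 5, 7 and 2 reads in siPAK4 replicates 1 to 4 and 0 in siControl. It was 7.38-fold higher with the same floor (interval from 5.54), and 37.0% of its 50-base words occur in other genes, chiefly Cyp2a4.

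Cyp4a12a, a fatty acid hydroxylase gene of male liver and kidney, had 10, 10, 7 and 9 reads in siPAK4 replicates 1 to 4, against 0, 0, 0 and 2 in siControl replicates 1 to 4. That is a ratio of 17.3 (exact 95% interval 4.46 to 149, counting error only), and 48.9% of its 50-base words occur elsewhere, chiefly in Cyp4a12b. Cyp2e1, the ethanol-oxidising P450 gene, had 10, 0, 23 and 9 reads in siPAK4 replicates 1 to 4, against 0, 0, 0 and 2 in siControl replicates 1 to 4 (ratio 20.2, interval 5.26 to 173). In a fit without the filter on low counts, Cyp3a11 (adjusted p = 0.021), Cyp4a12a (0.026) and Cyp2a5 (0.028) were called higher by edgeR's quasi-likelihood test and Cyp2e1 was not (0.052). With Cyp4f13 that made 4 of the 46 members with reads, where 6.88% of all genes with a read were called higher. Cyp17a1, the steroid 17-hydroxylase gene, had 0 reads in siPAK4 and 3, 5, 4 and 0 in siControl replicates 1 to 4. It was 4.15-fold lower in siPAK4 with siPAK4 set at the same floor (upper limit of the siPAK4 to siControl ratio 0.347). Cyp17a1 was not called in that fit (adjusted p = 0.10).

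Other low members were mixed. Cyp2ab1 had 57 reads in siPAK4, 30 of them in replicate 3, and 13 in siControl (ratio 4.22, interval 2.28 to 8.41; adjusted p = 0.17 without the filter). The interval of Cyp4f14 ran from 1.68 to 12.4, and its adjusted p was 0.38 without the filter. Intervals that include 1 were found for Cyp27b1, Cyp46a1, Cyp2b10, Cyp2d9, Cyp3a13, Cyp11b1, Cyp1a2, Cyp2c23, Cyp2c55 and Cyp2j8. All these intervals cover counting error only and leave out the variation among libraries, so they do not sort genes into changed and unchanged. They also assume plain read tallies, which very low counts here may not be. The bile acid synthesis genes Cyp7a1 and Cyp8b1 had fewer than 10 reads over all libraries. Cyp2j5, an arachidonic acid epoxygenase gene of liver and kidney, had 0, 2, 8 and 0 reads in siPAK4 replicates 1 to 4 and 0 in siControl. It was 3.21-fold higher with the floor of 3 counts (interval from 2.16). Cyp2j5 was not called in the fit without the filter (adjusted p = 0.18).

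Some hepatocyte markers were also higher with siPAK4. Alb was at 374, 680, 517 and 275 reads in siPAK4 replicates 1 to 4, against 118, 91, 59 and 126 in siControl replicates 1 to 4. Of 18 markers 11 were tested, and G6pc was at 0 throughout. Of the 11, 6 rose, 1 fell and 4 missed the threshold, where 12.4% of all tested genes rose and 14.5% fell. The summed level was 418 to 574 CPM in siPAK4 and 508 to 601 CPM in siControl, and most of it came from Trf and Ass1. Trf averaged 286 CPM in siPAK4 and 363 CPM in siControl, and Ass1 averaged 179 CPM in siPAK4 and 165 CPM in siControl. The siPAK4 library with the most reads on the low members, replicate 3, was second to replicate 2 in Alb. The part of hepatocyte RNA in the low members' reads was not tested.

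**Figure D5:**
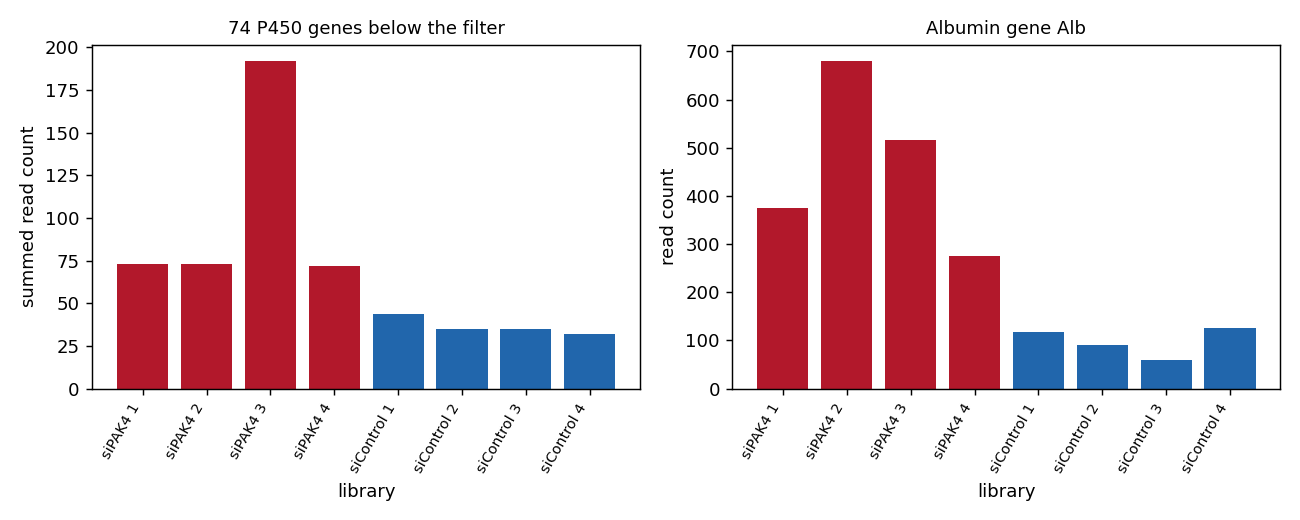
Summed read counts of the 74 members below the filter (left) and read counts of the albumin gene Alb (right) in each library, siPAK4 in red and siControl in blue. Both are higher in every siPAK4 library, with siPAK4 replicate 3 the highest for the P450 genes (192 reads) and siPAK4 replicate 2 the highest for Alb (680 reads).

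The untested and tested members also differed in a letter pattern near their start. TATAAA was found on either strand in 31 of 66 windows of untested members (47.0%) and in 1 of 17 windows of tested members (5.88%), against 13.6% of all 32851 windows. This is a description, since genes of a tandem cluster share sequence and are not independent.

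The partners of P450 enzymes moved in both directions. Of 12 genes for electron transfer and haem, 3 rose, 3 fell and 6 missed the threshold. Over all tested genes, 12.4% rose and 14.5% fell. Cyb5a, the cytochrome b5 gene that can pass an electron to P450 enzymes, rose to 436 ± 44.1 CPM in siPAK4, against 326 ± 11.1 CPM in siControl (log2 change 0.42, adjusted p = 0.0013), and the haem-binding Pgrmc1 (0.34, adjusted p = 0.022) and the ferredoxin gene Fdx2 (0.21, adjusted p = 0.043) rose. Cyb5b (−0.31, adjusted p = 0.0011), Cyb5r3 (−0.26, adjusted p = 0.0099) and the mitochondrial reductase gene Fdxr (−0.54, adjusted p = 0.0028) fell. Por averaged 152 ± 7.29 CPM in siPAK4 and 135 ± 10.9 CPM in siControl and did not pass (0.17, adjusted p = 0.076).

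Both P450 genes that carry other symbols fell. Ptgis, which encodes prostacyclin synthase, was at 77.0 ± 11.8 CPM in siPAK4 and 115 ± 10.8 CPM in siControl, a log2 fold change of −0.58 (adjusted p = 0.0021). Tbxas1, thromboxane synthase, was at 41.0 ± 8.54 CPM in siPAK4 and 53.0 ± 4.72 CPM in siControl (−0.37, adjusted p = 0.046, SD, n = 4 each). Its groups overlapped, with siPAK4 replicate 3 at 53.3 CPM and siControl replicate 1 at 46.9 CPM. Among 18 further sterol and eicosanoid genes, 14 were tested: 3 rose, 3 fell and the other 8 missed the threshold. The shares over all tested genes were 12.4% higher and 14.5% lower. Ch25h, the cholesterol 25-hydroxylase gene (0.81, adjusted p = 1e-05), Ptgs2, an inducible cyclooxygenase gene (0.87, adjusted p = 9.3e-05), and the cholesterol carrier gene Star (0.61, adjusted p = 0.00053) rose. The 12/15-lipoxygenase gene Alox15 (−1.38, adjusted p = 0.00063), the epoxide hydrolase gene Ephx1 (−0.37, adjusted p = 0.00078) and Scp2 (−0.29, adjusted p = 0.0067) fell.

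Among the regulators known from hepatocytes, Nr1i2 (PXR) and Hnf4a averaged below 0.1 CPM in both groups, and Nr1i3 (CAR) had 3 reads, all in siPAK4 replicate 2. Rxra, the shared partner of many nuclear receptors, averaged 101.6 CPM in siPAK4 and 100.6 CPM in siControl. Of 21 regulators 16 were tested: 5 rose, 4 fell and the other 7 missed the threshold. The shares over all tested genes were 12.4% higher and 14.5% lower. Besides Ahr and Rara, Cebpb (log2 fold change 0.75, adjusted p = 5.9e-05), Pparg (0.48, adjusted p = 0.0029) and Rxrb (0.19, adjusted p = 0.032) rose. Besides Vdr, the bile acid receptor gene Nr1h4 (−0.55, adjusted p = 0.012), the oxysterol receptor gene Nr1h3 (−0.52, adjusted p = 0.012) and Foxa2 (−0.75, adjusted p = 0.037) fell.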

How the data were processed

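Polyadenylated RNA was sequenced from 8 libraries, 4 per group, starting from 1 µg total RNA and using a stranded mRNA kit, per the labels' protocols. The table deposited by the authors holds whole-number read counts, used as deposited without normalization, and TPM and FPKM values that the authors scaled to length and depth, per the file headers. TPM served to compare levels between genes, and FPKM was not used further. Per the submitters' processing notes, the tools were StringTie 2.1.3b, HISAT2 2.1.0 and Bowtie2 2.3.4.1 on build mm10. How reads were counted, including strand and shared reads, is not given in the sources used here. In the whole table a count of 1 (5843 values) was rarer than a count of 2 (6979 values), so very low counts may not be plain read tallies. Every value column was matched to a sample by its library name, and 0 were left over.

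Genes were kept by filterByExpr of edgeR 4.0.16 (minimum count 10), which left 17975, and scaled by TMM. The groups were compared by the quasi-likelihood test of edgeR (robust fit). P-values were adjusted by Benjamini-Hochberg over all tested genes, with a threshold of 0.05, and standard errors were derived from the F statistic. Adjusted p-values are from that test unless another is named. Alternatives were DESeq2 1.42.0, library totals, no filter, a minimum mean of 1 CPM, the replicate number as a block, and leaving out each library. No pair of libraries of a group agreed within sampling noise (chi-square per degree of freedom 13.7 to 74.4). Ratios for untested members are of summed counts, scaled by summed library size. Share of 50-base words was taken from GENCODE M21 transcripts on GRCm38, and coordinates, counted from 1, from RefSeq on GRCm38.p6, the build also called mm10.

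Tested members, and untested ones with at least 10 reads, could be named with values, and those past the threshold are given by library. Other genes named come from fixed lists (partners, regulators, related enzymes, cell type markers) or are P450 rows that the rule left out. Members and lists were chosen with earlier results of these data known.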

Additional observations from a re-analysis of the deposited data

Results flagged for a closer look

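In the 42 groups of 4 libraries formed by the 21 tested members, 3 libraries stood apart from the others of their group by Dixon's 95% criterion on CPM, where chance gives about 1 in 20. Cyp4v3 was at 57.1 CPM in siPAK4 replicate 3, against 43.2 to 45.3 CPM in the other siPAK4 libraries. Cyp2s1 was at 4.09 CPM in siControl replicate 2, against 2.49 to 2.72 CPM in the other siControl libraries. Cyp2u1 was at 1.31 CPM in siPAK4 replicate 1, against 0.612 to 0.732 CPM in the other siPAK4 libraries.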

How the results depend on the processing

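Of 267 refits of single members, 252 kept their direction and their side of the threshold. Cyp4b1, Cyp4f13, Cyp4f16, Cyp4f17, Cyp4f18 and Cyp26a1 did so in every alternative in which they were tested. The count of members called higher was 4 with library totals, 4 with no filter on low counts and 1 to 2 when 1 library was left out, with 2 without siPAK4 replicate 3. Members called lower numbered 5 to 6 when 1 library was left out. Signs of members that had not passed turned for Cyp20a1 with library totals (0.021), and when 1 library was left out for Cyp39a1 (−0.044 to 0.062), Cyp2u1 (−0.15 to 0.30) and Cyp4f39 (−0.43 to 0.44). The cause was not tested. The replicate numbers do not pair the libraries: the deviations of same-numbered libraries correlated by 0.035, −0.047, 0.10 and −0.037. With the replicate block 1 member was called higher and 6 lower, as without it, and 4587 of all genes against 4832. Depth limits the 6 tested members averaging under 1 CPM, which had 6 to 76 reads per library, and more so the untested ones.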

Other observations

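Rows of the table with a P450 symbol that are not protein-coding numbered 12, and 3 of them had reads. The transcribed pseudogene Cyp4b1-ps2 had 98, 82, 68 and 112 reads in siPAK4 replicates 1 to 4, against 129, 180, 166 and 158 in siControl replicates 1 to 4 (log2 fold change −0.86, adjusted p = 0.0044 by edgeR's quasi-likelihood test), and it shares sequence with Cyp4b1. Cyp4f41-ps had 26, 17, 9 and 41 reads in siPAK4 and 12, 22, 24 and 22 in siControl, and did not pass (0.17, adjusted p = 0.82). Cyp2d67-ps had 2 reads in 1 library.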
